A study of Mus musculus with 20 samples.

Results

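The genes described here encode the subunits of the nuclear RNA polymerases. They were chosen by symbol: the mouse protein-coding genes whose symbol starts with Polr1, Polr2 or Polr3 followed by a letter. The rule found 28 of 21631 protein-coding genes on chromosomes 1 to 19 and X. Polymerase I is represented by 5 genes (Polr1a to Polr1e), polymerase II by 13 (Polr2a to Polr2m) and polymerase III by 10 (among them Polr3a to Polr3g, Polr3gl and Polr3k). Among them, 5 with a polymerase II symbol (Polr2e, Polr2f, Polr2h, Polr2k and Polr2l) encode subunits used by all 3 enzymes, and 2 with a polymerase I symbol (Polr1c and Polr1d) encode subunits used by polymerases I and III.

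RNA polymerase I transcribes the large ribosomal RNA precursor in the nucleolus, polymerase II transcribes messenger RNA genes, and polymerase III transcribes transfer RNA and other short RNA genes. The kinase mTOR promotes polymerase I and III transcription in many cell types, and the transcription factor MYC is known to bind ribosome-related genes and to act on all the nuclear polymerases. Hematopoietic stem cells (HSC), the rare bone marrow cells that renew all blood lineages, are known for low protein synthesis at rest.

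HSC were sorted by flow cytometry from adult mice given poly(I:C), an RNA mimic that induces interferon and thereby the Mx1-Cre transgene. The KO MycHet mice were Mx1-Cre+/- and mTORflox/flox and carried 1 floxed c-Myc allele (c-Myc+/flox). The KO mice were Mx1-Cre+/- and mTORflox/flox, and the WT mice were Mx1-Cre-/- and mTORflox/flox, so all 3 groups had floxed mTOR alleles and poly(I:C). The Mx1 promoter responds to interferon in many cell types, so deletion is not confined to HSC. Cre itself was absent from WT mice and cannot be told apart from the deletion.

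Peak lists of 12 libraries were used. Chromatin immunoprecipitation (ChIP-seq) of H3K27ac, a mark of active promoters and enhancers, of H3K4me3, a mark of active promoters, and of MYC had 1 KO and 1 WT library each. ATAC-seq, which maps open chromatin, had 2 KO MycHet, 2 KO and 2 WT libraries of 50000 cells. The KO list was longer than the WT list for H3K27ac (20036 and 10078 peaks), for H3K4me3 (16019 and 15089) and for MYC (22086 and 8774). ATAC-seq lists held 47214 and 53722 peaks in KO MycHet, 19174 and 72149 in KO, and 17303 and 66531 in WT libraries 1 and 2. Read depth is unknown, since the lists hold no counts, and its part in the differences below was not tested. At Mtor, the targeted gene, the end with the lower coordinate had a peak in none of the 2 KO MycHet and 5 KO libraries and in all 5 WT libraries. Of 12 HSC marker genes, 9 had H3K4me3 in KO and 9 in WT, and 4 were open in all 6 ATAC-seq libraries. No marker of erythroid, myeloid, B, T, or stromal and endothelial cells was open in all 6. Of these 22 genes, however, 7 were open in no library and the others in 1 or more, with Epor, Ebf1 and Col1a1 open in 5. H3K4me3 lay at 6 of the 22 in KO and at 5 in WT. The labels do not say whether libraries of a group came from separate mice, and bulk lists do not tell fewer marked cells from less mark per cell.

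A gene was scored as marked, bound or open in a library when a peak came within 1 kb of either annotated end. The peak score is the authors' value, on a scale not stated, and is read here only within a list, as the percentage of that list's peaks with a lower score (its percentile). Each ChIP target had a single KO and a single WT library, so genotypes were compared without a test or a replicate error. With 2 ATAC-seq libraries per genotype an exact two-sided permutation test cannot go below p = 0.33, so none was run.

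**Figure D1:**
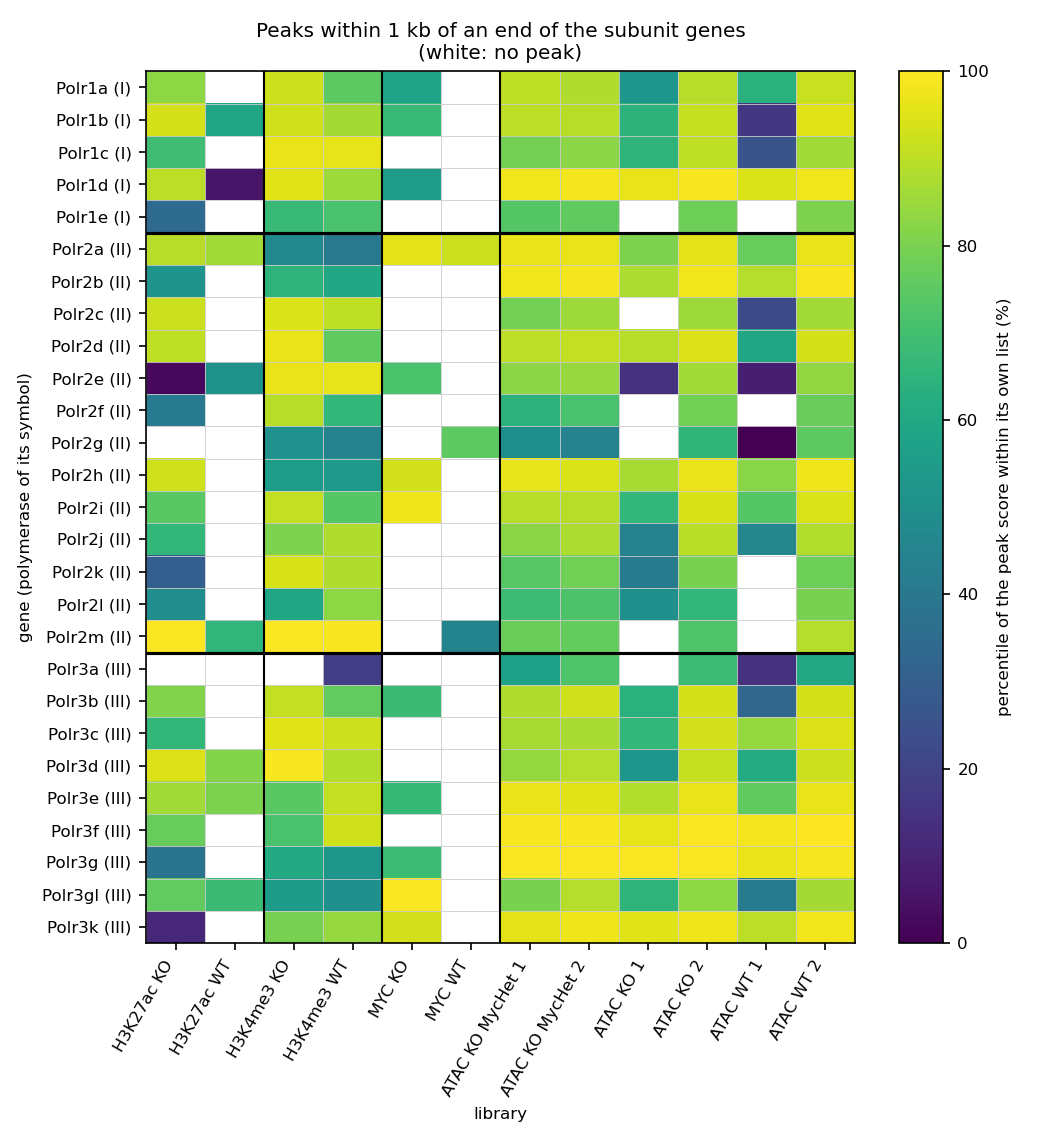
Each row is a subunit gene and each column a library, and the colour gives the percentile of the highest-scoring peak within 1 kb of either gene end among all peaks of that list (%). White cells, where no peak lay at the gene, fill 2 of the 27 places drawn in the H3K27ac KO column against 19 in the WT column, and 15 in the MYC KO column against 24 in the WT column.

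Subunit genes carried H3K4me3 in both genotypes almost without exception. A peak was present at 27 of 28 genes in KO and at all 28 in WT, beside 54.3% of all genes in KO and 52.9% in WT, so none was KO only (2.94% of all genes were) and 1 was WT only (1.52% of all genes). The exception was Polr3a, which encodes the largest, catalytic subunit of polymerase III. Its WT peak lay at the upper end of the gene, the one with the larger coordinate (mm10, chr14:24485715-24487347), and scored 101, the lowest of any subunit gene in that list. The nearest KO peak was 3201 bp away from that end. In the ATAC-seq lists the same end of Polr3a was open with scores of 157.0 and 258 in KO MycHet, no peak and 237 in KO, and 58.6 and 197 in WT libraries 1 and 2, so it was open in all 3 genotypes.

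The subunit genes mostly stood high among all peaks of the H3K4me3 lists, though where all genes stand by this measure was not computed. The median percentile of the highest-scoring peak was 89.4 over 27 genes in KO and 79.5 over 28 in WT. Polr2m, which encodes a protein that binds polymerase II and restrains it, had the highest score in both lists (867 in KO and 805 in WT). Polr2a, which encodes the largest subunit of polymerase II with its carboxy-terminal repeat domain, was the lowest in KO (265) and the second lowest in WT (232). The peak was wider in KO at 25 of the 27 genes (92.6%) with a peak in both lists, where 91.9% of all such genes had a wider KO peak. Median widths were 3560 bp in KO and 2632 bp in WT for the subunit genes, beside 3265 bp in KO and 2650 bp in WT for all genes. Polr2d, a subunit of the polymerase II stalk, was 3588 bp wide in KO and 3818 bp in WT, and Polr1a, the largest subunit of polymerase I, was 4598 bp in KO and 4611 bp in WT. The widening at the subunit genes was thus as frequent as in the lists as a whole.

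**Figure D2:**
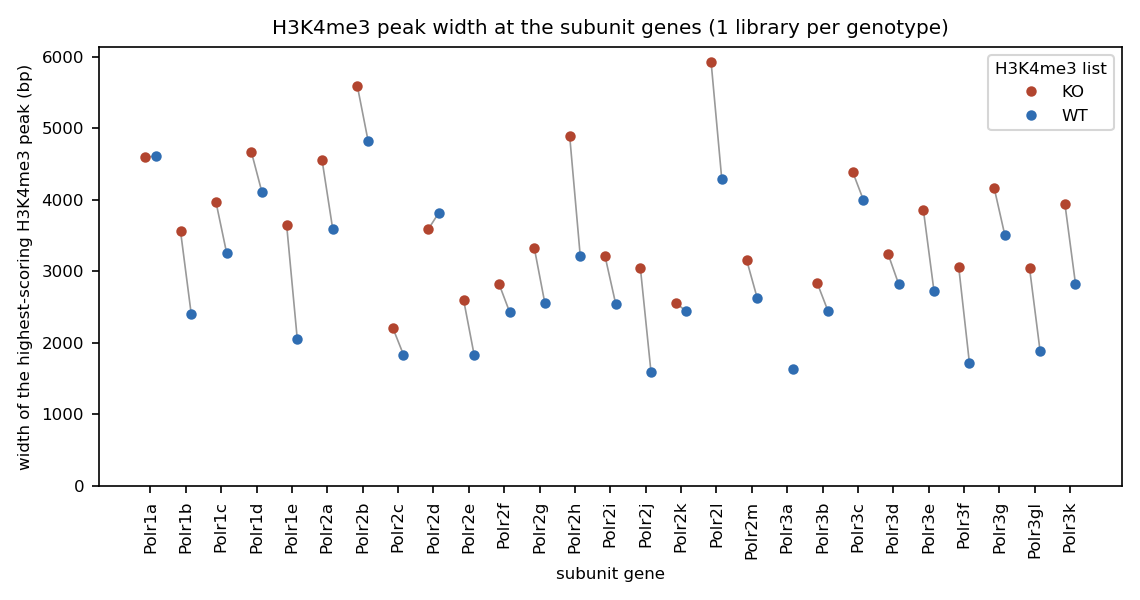
Points give the width (bp) of the highest-scoring H3K4me3 peak at 27 subunit genes in the KO list (red, left) and the WT list (blue, right), joined where both exist. KO points lie above WT points at 24 of 26 genes, with Polr1a and Polr2d below, and Polr3a has a WT point alone.

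Open chromatin at the subunit genes differed with the library more than with the genotype. Every one of the 28 genes had an ATAC-seq peak in both KO MycHet libraries, in KO library 2 and in WT library 2, against 22 in KO library 1 and 23 in WT library 1, which have the shorter lists. Peaks in all 6 libraries were present at 20 genes, beside 40.0% of all genes and 73.5% of genes that carried H3K4me3 in KO and WT alike. By enzyme these were 4 of 5 polymerase I, 7 of 13 polymerase II and 9 of 10 polymerase III genes. Without KO library 1 and WT library 1 all 28 were open, an alternative chosen after the data were seen. Counting only peaks with a score of at least 100, 11 were open in all 6. In KO library 1 no peak was called at Polr1e, Polr2c, Polr2f, Polr2g, Polr2m and Polr3a, and in WT library 1 none at Polr1e, Polr2f, Polr2k, Polr2l and Polr2m.

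ATAC-seq calls that followed genotype were rare over all genes, and no subunit gene had one. Because all 28 genes had a peak in library 2 of every genotype, such a call could not occur among them. None was open in both KO and neither WT library (0.0277% of all genes), in both WT and neither KO library (0.0231%), in both KO MycHet and neither KO library (0.411%), or in both KO and neither KO MycHet library (0.0416%). In each library the highest peak at a subunit gene stood at Polr3g or Polr3f, both polymerase III genes. Polr3g, a subunit of the initiation subcomplex of polymerase III whose close relative Polr3gl can take its place, scored 1212 and 1265 in KO MycHet, 441 and 1555 in KO and 353 and 1337 in WT libraries 1 and 2. Polr3f, another subunit of that subcomplex, scored 1112 and 1145 in KO MycHet, 292 and 1509 in KO and 384 and 1739.96 in WT libraries 1 and 2. Within its own list each of these peaks stood at percentile 96.2 or higher, in the shorter lists as in the longer ones. An end of Mblac2 lies 404 bp from the Polr3g start and an end of Dzank1 238 bp from the Polr3f start. These peaks thus cannot be given to 1 gene alone.

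H3K27ac was present at most subunit genes in KO and at few in WT. A peak lay at 26 of 28 genes in KO (92.9%) and at 8 in WT (28.6%), beside 39.6% of all genes in KO and 14.6% in WT, and all 8 WT genes also had a KO peak. The 18 KO-only genes are 64.3% of the set, beside 25.8% of all genes, and no gene was WT only, beside 0.767% of all genes. Among genes with H3K4me3 in both genotypes the KO-only counts were 18 of 27 subunit genes (66.7%) and 46.7% of all such genes, and the WT-only shares were 0 of 27 and 0.855%. At none of the 18 did the KO peak touch a WT peak lying farther out, a check added after the data were seen. Of 29 KO H3K27ac peaks at subunit genes, 13 were also within 1 kb of an end of another protein-coding gene. Among these were the KO-only peaks at Polr1a, Polr1c, Polr2b, Polr2f, Polr2h, Polr2i, Polr2l, Polr3c, Polr3f and Polr3g. Such peaks cannot be given to the subunit gene alone. With the 10078 highest-scoring peaks of each list, 12 subunit genes were KO only and 1 (Polr2e) WT only, beside 18.4% and 1.78% of all genes.

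For polymerase I, H3K27ac was found at 5 of 5 genes in KO and 2 in WT. Polr1b, the second-largest subunit, had a KO peak at its start (score 135, width 1122 bp) and a WT peak inside the same stretch (70.8, 270 bp). A further KO peak of 369 lay at its other end and was also within 1 kb of an end of Chchd5, a neighbour 1640 bp away. Polr1d, which pairs with Polr1c in the enzymes' assembly platform, had a KO peak of 316 and a WT peak of 51.4 that did not overlap each other. Polr1a (248), Polr1c (168) and Polr1e (78.1), the last a subunit that helps initiation and elongation, had a peak in KO alone. The KO peaks of this enzyme thus ran between percentiles 34.9 and 93.5 of their list.

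For polymerase II, H3K27ac was found at 12 of 13 genes in KO and 3 in WT. Polr2m had the highest KO score of all subunit genes (631, percentile 99.3), with a WT peak of 75.7 inside its span. Polr2a scored 306 in KO and 109 in WT, and both peaks were also within 1 kb of an end of Slc35g3, 1251 bp from the Polr2a start. Polr2e, which encodes a subunit of all 3 enzymes, had the lowest KO score (51.2, percentile 2.71) and a WT peak of 66.75 on the other side of the start that did not overlap it. So the shared call at Polr2e, as at Polr1d, joins different stretches of the same promoter region. KO-only peaks were found at Polr2b, the second-largest subunit (108), at Polr2c (343) and Polr2j (155), which together form the assembly platform of polymerase II, at Polr2d (324) and at Polr2i, a subunit involved in start site choice and fidelity (192). Of the common subunits, Polr2h (354), Polr2l (102), Polr2f (86.8) and Polr2k (71.65) were KO only as well. Polr2g, the partner of Polr2d in the stalk, had no H3K27ac peak in either list.

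For polymerase III, H3K27ac was found at 9 of 10 genes in KO and 3 in WT. Polr3d and Polr3e, which form a pair in the enzyme related to a general initiation factor of polymerase II, had peaks in both lists, at 398 in KO and 97.0 in WT for Polr3d and 274 in KO and 94.8 in WT for Polr3e. Polr3gl had a KO peak at its start (141) and one at its other end (199), and its WT peak (78.0) lay at that other end. KO-only peaks were found at Polr3b, the second-largest subunit (232), at Polr3f (204), at Polr3c, the third subunit of the initiation subcomplex (156), at Polr3g (83.3), and at Polr3k, a small subunit with a role in RNA cleavage (56.0). Polr3a had no H3K27ac peak in either list, and it was also the gene without H3K4me3 in KO. KO-only genes thus numbered 3 of 5 for polymerase I, 9 of 13 for polymerase II and 6 of 10 for polymerase III. Of all genes 25.8% were KO only, and of those with H3K4me3 in both genotypes 46.7%. Differences between the enzymes were not tested.

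Where the start side of the gene was known from a promoter table, for 22 of the 28 genes, all 22 starts had an H3K27ac peak in KO and 6 (27.3%) had one in WT, beside 38.5% in KO and 14.2% in WT of the 17274 genes with a known start. Widths were compared for the highest-scoring peak at either end in each list, which need not be the same site. By this measure the KO peak was the wider one at all 8 genes with a peak in both lists, as at 99.9% of all such genes. Median widths were 1942 bp in KO and 412 bp in WT for the subunit genes, and 2407 bp in KO and 535 bp in WT for all genes. At Polr1b the KO peak taken (2950 bp) lay at the far end and the WT peak (270 bp) at the start. The KO peak at that start was 1122 bp wide. At Polr1d and Polr2e the KO and WT peaks did not overlap. WT H3K27ac peaks of the whole list were narrower too, with a median width of 1237 bp in KO and 333 bp in WT.

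**Figure D3:**
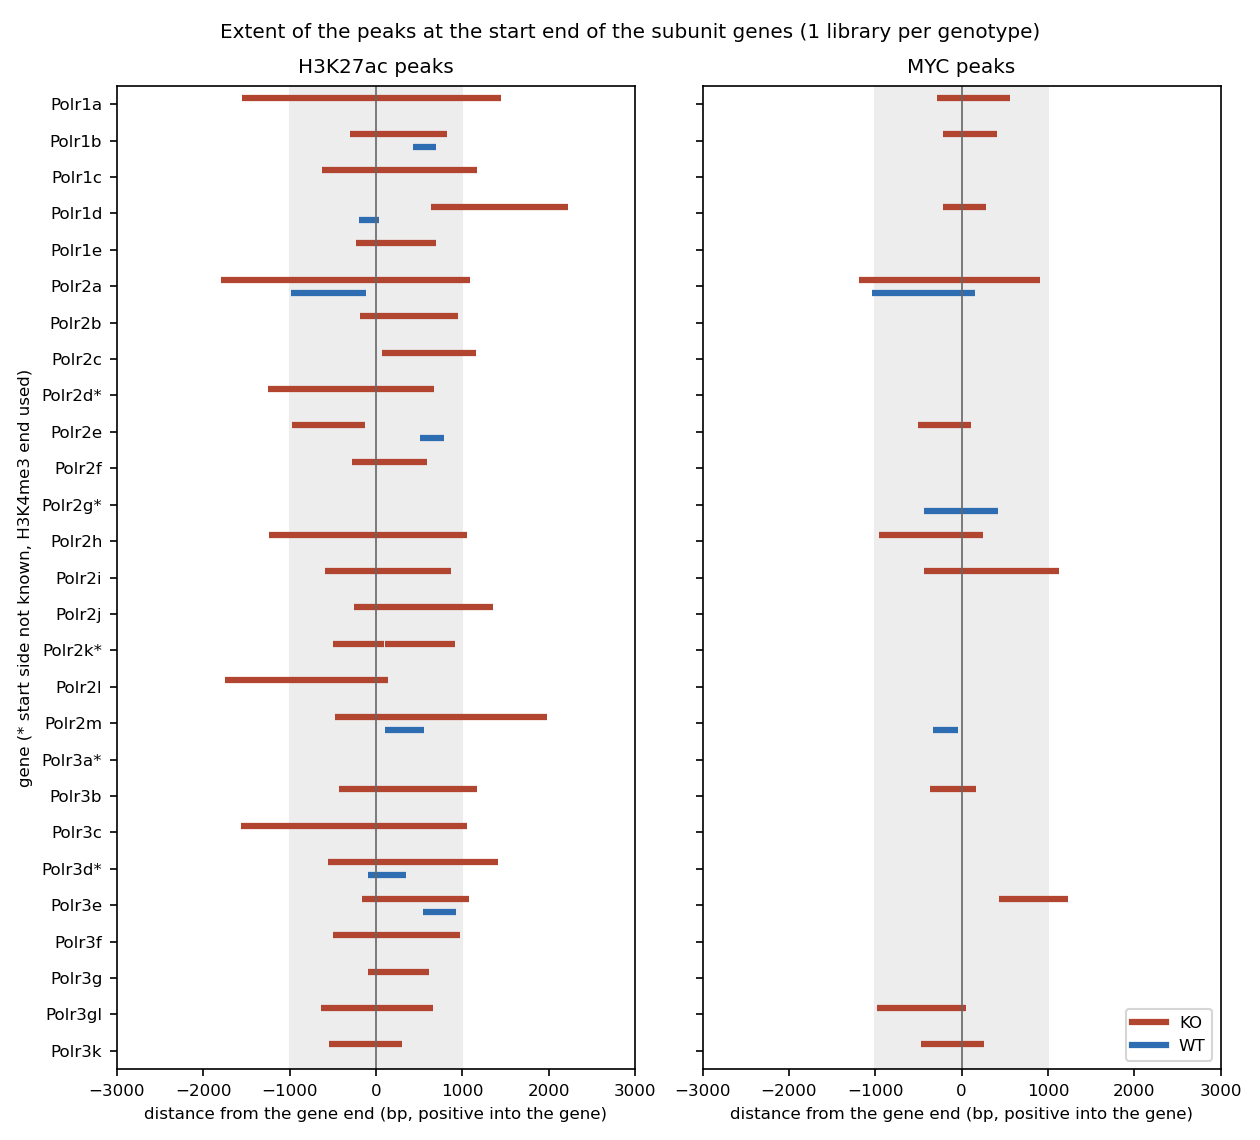
Horizontal bars give the extent (bp from the gene end, positive into the gene) of H3K27ac peaks (left) and MYC peaks (right) at the start end of 27 subunit genes, with KO in red above WT in blue, and the grey band marks 1 kb on either side. Genes with an asterisk have no known start side and are drawn at the end with H3K4me3. H3K27ac bars are mostly red and span the start, and the WT bars are short. Peaks at the far ends of Polr1b, Polr3g and Polr3gl are not drawn.

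MYC peaks lay at 12 of 28 subunit genes in KO (42.9%) and 3 in WT (10.7%), beside 22.3% of all genes in KO and 10.3% in WT. The WT share was thus near that of all genes. With H3K4me3 in both genotypes, 44.4% of 27 subunit genes had MYC in KO and 11.1% in WT. Of all such genes, 39.3% had it in KO and 18.2% in WT. At that scope the KO share was near that of all such genes and the WT share below it. In KO only there were 11, which is 39.3% of the 28 genes beside 14.4% of all genes, in WT only 2, which is 7.14% beside 2.35% of all genes, and in both lists 1. Among genes with H3K4me3 in both genotypes, 11 of 27 subunit genes (40.7%) and 24.8% of all genes were KO only, and 2 of 27 (7.41%) and 3.71% of all were WT only. None of these 11 KO peaks touched a WT peak lying farther out. With the 8774 highest-scoring peaks of each list, 9 subunit genes were KO only and the same 2 were WT only, where 5.67% of all genes were KO only and 4.59% WT only. With peaks scoring at least 100 alone, 4 subunit genes were KO only and none WT only, beside 6.17% and 0.795% of all genes. All 12 KO genes had a peak above the median of the KO list, a share that was not computed for all genes with a MYC peak.

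By enzyme, KO MYC peaks were found at 3 of 5 polymerase I, 4 of 13 polymerase II and 5 of 10 polymerase III genes. In WT they lay at 3 polymerase II genes and at none with a polymerase I or III symbol. Of all genes, 22.3% had a MYC peak in KO and 10.3% in WT. Znrd1 and Cd3eap, polymerase I genes that the symbol rule misses, did have a WT peak. For polymerase I, the KO peaks at Polr1b (92.0), Polr1a (80.5) and Polr1d (77.8) stood between percentiles 55.1 and 67.4, and their centres lay 97, 135 and 37 bp after the annotated starts. Polr1c and Polr1e had none in either list. An end of Ptcd3 lies 280 bp from the Polr1a start and an end of Lnx2 143 bp from the Polr1d start, so the peak cannot be given to 1 gene alone.

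For polymerase II, Polr2a was the gene with MYC in both lists, at a score of 223 and a width of 2095 bp in KO and a score of 150.35 and a width of 1187 bp in WT. Polr2i had the highest KO-only score of the enzyme (276, percentile 97.4), on a gene of 1314 bp where 1 peak lay within 1 kb of both ends and of ends of Tbcb and Ovol3. Of the common subunits, Polr2h (182) and Polr2e (98.7) were KO only. The WT list had a MYC peak of 104 inside Polr2h, 1317 bp from its nearer end and so outside the window. WT-only peaks lay at Polr2g (95.3) and Polr2m (65.4). Polr2b, Polr2c, Polr2d, Polr2f, Polr2j, Polr2k and Polr2l had none in either list, with the nearest KO peaks just outside the window at Polr2l (1078 bp) and Polr2f (1271 bp).

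For polymerase III, the KO-only peaks lay at Polr3gl (484, percentile 99.3), Polr3k (184, percentile 93.3), Polr3g (93.6), Polr3b (92.9) and Polr3e (91.3). The Polr3gl peak spanned chr3:96594130-96595158 and was the highest MYC peak at any subunit gene. It was also within 1 kb of an end of Ankrd34a. A second KO peak of 81.6 lay at the other end of Polr3gl, over the H3K27ac peaks found there. The peak at Polr3g lay at the end away from its start, where no H3K4me3 was called, and was also within 1 kb of an end of Lysmd3, so the start of Polr3g itself had no MYC peak. Polr3a, Polr3c, Polr3d and Polr3f had none in either list. Other WT peaks near KO-only genes were 1388 bp from an end of Polr1b, 2078 bp from Polr3gl and 2514 bp from Polr2e.

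In KO, the MYC peak shared its gene end with H3K4me3 at 11 of 12 genes, with H3K27ac at 11 and with an ATAC-seq peak of KO library 2 at 11, beside 88.9%, 83.7% and 94.2% of all genes with a KO MYC peak. At 6 genes both MYC and H3K27ac were KO only (Polr1a, Polr2h, Polr2i, Polr3b, Polr3g and Polr3k), and at Polr3g the peaks lay at opposite ends. At 12 genes H3K27ac was KO only without any MYC peak within 1 kb of an end. At 5 genes with H3K27ac in both lists MYC was KO only (Polr1b, Polr1d, Polr2e, Polr3e and Polr3gl). KO-only H3K27ac calls were thus found at subunit genes with and without a MYC peak in the window. The same split was not computed over all genes, and a link with MYC was not tested.

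**Figure D4:**
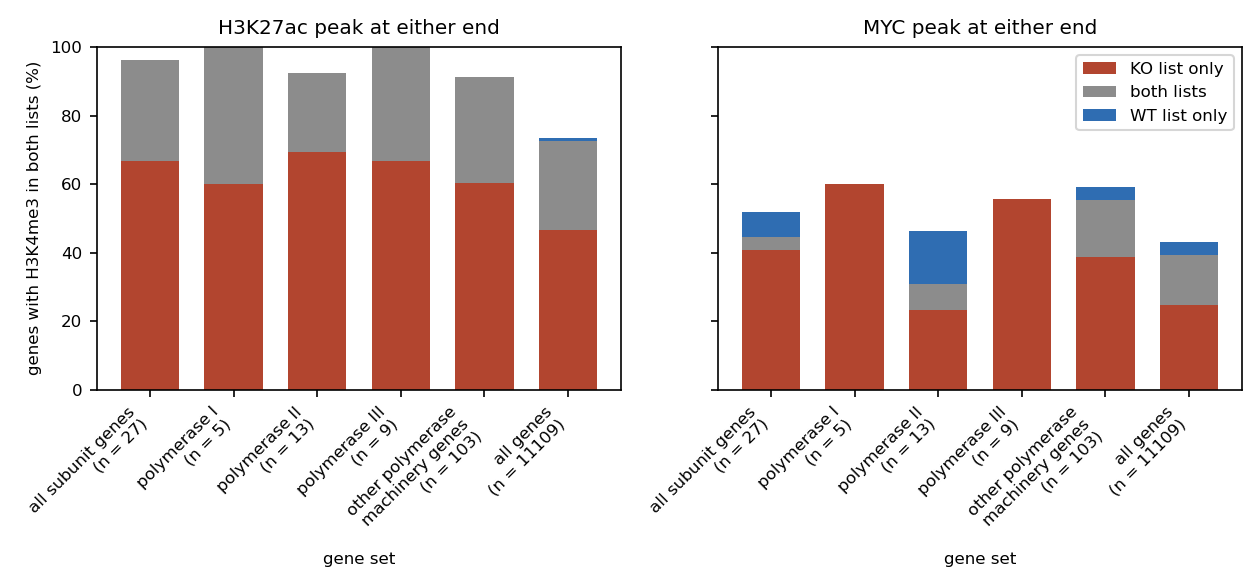
Stacked bars give the share (%) of genes with H3K4me3 in both lists that have an H3K27ac peak (left) or a MYC peak (right) in the KO list alone (red), in both lists (grey) or in the WT list alone (blue), for the subunit genes, each enzyme, 103 other genes of the polymerase machinery and all 11109 genes. The MYC bars of polymerases I (n = 5) and III (n = 9) are red throughout, and that of polymerase II (n = 13) holds 3 KO-only, 1 shared and 2 WT-only genes.

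Promoter sequences (RefSeq, GRCm38.p6, 250 bases before to 50 after the start) were matched for 22 of the 28 genes, with 24 windows. They were searched on both strands for CACGTG, the E-box that MYC binds with its partner MAX, and for CACGCG, a variant that MYC also binds. Hits of the motifs did not overlap. CACGTG was found in 4 of 22 genes (18.2%), beside 9.02% of 17274 genes and 11.7% of those with H3K4me3 in both genotypes. CACGCG was found in 10 of 22 (45.5%), beside 13.9% and 20.5%. Neither motif was confined to genes with a MYC peak, since CACGTG lay in 3 of 12 genes with a KO peak and 1 of 10 without, and CACGCG in 4 of 12 with and 6 of 10 without. A match describes the letters and does not show binding.

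At 4 genes a motif lay inside the KO MYC peak, and the stretch around it is shown for each, 5′ to 3′ on the gene's strand, with the motif or its reverse complement CGCGTG in capitals. Positions give the first base of the motif, in bases from the start, negative before it. They are Polr3gl (chr3:96594340-96594405, minus strand, motif at -194), Polr3k (chr2:181864202-181864267, plus strand, at -128), Polr2h (chr16:20717758-20717823, plus strand, at -38) and Polr2e (chr10:80039660-80039701, minus strand, at -12). Polr3c (chr3:96727641-96727689, minus strand, at -237) is set beside them as a promoter with the E-box and no MYC peak.
Polr3gl: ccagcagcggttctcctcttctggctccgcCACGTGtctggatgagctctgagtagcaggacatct
Polr3k: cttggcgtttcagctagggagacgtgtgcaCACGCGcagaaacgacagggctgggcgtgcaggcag
Polr2h: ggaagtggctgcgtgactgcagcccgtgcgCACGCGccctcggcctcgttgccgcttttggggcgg
Polr2e: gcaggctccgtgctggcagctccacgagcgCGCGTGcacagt
Polr3c: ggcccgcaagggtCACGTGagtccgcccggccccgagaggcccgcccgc

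The E-box of Polr3gl thus sat under the highest MYC peak of the set and had no WT peak over it. At Polr3c the same letters had no MYC peak in either list, although the promoter was open in all 6 libraries and carried H3K27ac in KO. Polr2h holds CACGTG as well, 23 bases after its first base and under the same KO peak. At Polr3e, CACGTG lay 5 bases after the first base, outside the KO MYC peak, which was centred 835 bp into the gene.

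The promoter of Polr3e also holds part of a transfer RNA gene, the kind of gene that polymerase III transcribes. The gene n-TLaag4 (82 bases, chr7:120917517-120917598) ends 180 bp before the Polr3e start. It is the 1 transfer RNA gene with its lower coordinate within 1 kb of an end of any subunit gene. By a slightly wider rule, 42 of 21631 genes (0.194%) have a transfer RNA gene with either coordinate within 1 kb of an end. This search was made after the promoter sequences were read. Its last 71 bases (chr7:120917528-120917598, plus strand) are shown with the B box, an internal promoter element of transfer RNA genes, in capitals. The element was searched on both strands as GGTTCGA followed, after any 2 bases, by CC, and 29 of 21045 promoter windows (0.138%) hold it.
n-TLaag4: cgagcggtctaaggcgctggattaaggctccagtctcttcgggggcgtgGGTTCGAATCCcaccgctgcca

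The transfer RNA gene was overlapped by an ATAC-seq peak in all 6 libraries, with scores of 847 and 817 in KO MycHet, 204 and 1017 in KO and 157 and 1118 in WT libraries 1 and 2. An H3K4me3 peak covered it with a score of 459 in KO and 589 in WT. No H3K27ac or MYC peak overlapped it in either genotype, but the KO H3K27ac peak of Polr3e began at chr7:120917617, just after the transfer RNA gene ends (120917598). Both the ATAC-seq and the H3K4me3 peaks extended into Polr3e, so they do not separate the transfer RNA gene from the Polr3e promoter.

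Other genes of the polymerase machinery varied by list in their KO-only shares. Of 108 such genes, H3K27ac was present at 95 in KO and 33 in WT (62 KO only and none WT only), and MYC at 57 in KO and 21 in WT (40 KO only and 4 WT only). Among those with H3K4me3 in both lists, 60.2% were KO only for H3K27ac and 38.8% for MYC, beside 66.7% and 40.7% of the subunit genes and 46.7% and 24.8% of all genes. For H3K27ac these shares were 36.4% for assembly factors, 48.4% for Mediator, 70.0% for polymerase I factors, 71.0% for general transcription factors and 75.0% for polymerase III factors. For MYC they were 27.3% for assembly factors, 45.2% for Mediator, 50.0% for polymerase I factors, 32.3% for general transcription factors and 37.5% for polymerase III factors. At this scope the lists hold 11 assembly factors, 31 Mediator genes, 10 polymerase I factors, 31 general transcription factors and 16 polymerase III factors. The H3K27ac share of assembly factors rests on 4 genes, and differences between shares of such small lists were not tested. Assembly factors were near the share of all genes for MYC, as was Mediator for H3K27ac. The symbol rule misses 4 subunit genes, and all 4 had MYC in KO. Twistnb, a polymerase I stalk subunit (94.3), and Crcp, a polymerase III subunit (65.2), were KO only. Znrd1, a small polymerase I subunit, had MYC in both lists (165 in KO and 131 in WT), as did Cd3eap, the partner of Polr1e (65.5 in KO and 87.3 in WT).

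By list, initiation and assembly factors had the following counts over all their genes. Beside them, 39.6% of all genes had H3K27ac in KO and 14.6% in WT, and 22.3% had MYC in KO and 10.3% in WT. Factors of polymerase I had H3K27ac at 8 of 11 genes in KO against 1 in WT, and MYC peaks at 5 in KO against 1 in WT, with Nolc1 (150.19), Taf1c of the promoter selectivity factor (105) and the termination factor Ttf1 (97.6) KO only, and Baz2a (64.8) WT only. General transcription factors of polymerase II had H3K27ac at 30 of 32 genes in KO against 8 in WT, and MYC peaks at 15 in KO against 5 in WT, with Gtf2h1 (113), the TATA-binding protein gene Tbp (109) and Gtf2f1 (109) KO only. Mediator, which links activators to polymerase II, had H3K27ac at 30 of 32 genes in KO against 15 in WT, and MYC peaks at 20 in KO against 9 in WT, with Med23 (162), Cdk19 (157) and Med29 (101) KO only and Med27 (95.8) and Med22 (77.1) among 3 WT only. Factors of polymerase III had H3K27ac at 15 of 16 genes in KO against 3 in WT, and MYC peaks at 8 in KO against 2 in WT, with Snapc5 (121), Gtf3c4 (86.6) and Snapc1 (69.3) KO only. Polymerase assembly factors had H3K27ac at 8 of 13 genes in KO against 4 in WT, and MYC peaks at 5 in KO against 2 in WT, with Uxt (119), Wdr92 (104) and Gpn2 (94.1) KO only. Every list had more genes called in KO than in WT, as did all genes, so this direction is not particular to the polymerase machinery.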

How the data were processed

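Peak lists of 12 libraries were analysed, and 8 RNA-seq samples were not analysed here. Each deposited list gives positions and a score per peak, called per library, and the score is the authors' peak caller value on a scale not stated. Per the submitters' processing notes the build was mm10, and CASAVA was used. The aligner was not given in the sources used here, nor were the peak caller's settings or any input control.

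Peaks on chromosomes 1 to 19 and X were overlapped (minimum 1 bp) with windows of 1 kb around both ends of each gene of GRCm38.p6, the assembly also called mm10. That gene table has no strand, so the start side was known only where a RefSeq promoter matched. Counts were checked against bedtools 2.31.1 and on simulated data, with Python 3.11.15 and pandas 2.3.3. The members and lists were chosen with earlier results of these data known. All members were named except 1, which is counted but not reported singly here, with up to 3 KO-only and 2 WT-only companion genes per list by MYC score. Alternatives were other windows, equal peak numbers, a score minimum, midpoints, the start end alone and each ATAC-seq library left out.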

Additional observations from a re-analysis of the deposited data

How the results depend on the processing

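Counts of subunit genes were recomputed with windows of 500 bp and 2.5 kb, equal numbers of the highest-scoring peaks, a score of at least 100, the peak midpoint inside the window and the start end alone. Of 55 recomputed counts, 46 stayed within 1.5 times the value reported. KO-only H3K27ac genes numbered 12 to 21 and stayed within that range. WT-only H3K27ac genes, 0 in the report, numbered 1 with equal numbers of peaks, 1 with the midpoint and 1 with the 500 bp window. WT-only H3K4me3 genes numbered 4 with the midpoint and 0 at the start end, which is known for 22 genes. With a score of at least 100, KO-only MYC genes fell to 4, WT-only MYC genes to 0 and genes open in all 6 ATAC-seq libraries to 11. At the start end WT-only MYC genes numbered 1. Leaving out 1 ATAC-seq library gave 20 to 23 genes open in all the others, and leaving out both shorter lists 28. The causes were not tested. No paired analysis was possible because the counts of peaks come from no test, although the ATAC-seq groups share replicate numbers 1 and 2. These numbers need not mark matched sets. The sample records place KO library 1 and WT library 1 in an earlier block than KO MycHet library 1 and every library 2. List 1 held 47214 peaks in KO MycHet, 19174 in KO and 17303 in WT. The shorter lists thus went with the earlier block, which holds no KO MycHet library, and a difference between blocks was not tested.

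ChIP had 1 library per genotype and target, so no replicate error exists for any of these counts. A missing peak is a call below the authors' threshold at an unknown depth, not an absence of the mark. The KO lists of H3K27ac and MYC were longer than the WT lists over the whole genome, and equal numbers of peaks set only the list length alike, not the depth.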

Other observations

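Some subunit genes also had peaks inside the gene, over 1 kb from both ends. Polr3gl had an internal stretch with H3K4me3 (scores of 56.3 in KO and 121 in WT) and MYC (122.71 in KO and 84.6 in WT), and it was open there in both KO MycHet libraries, both KO libraries and WT library 2. MYC was thus present inside Polr3gl in both genotypes, while the peak at its start was in KO alone. Polr3b, the longest of the 28 genes at 104887 bp, had an internal MYC peak of 55.8 in KO within an internal H3K27ac peak of 92.0 in KO, and no WT peak of either kind. No ATAC-seq library had a peak at that position. Polr3g had 2 internal MYC peaks in KO (60.8 and 53.7) and none in WT, and the first lay in a stretch open in all 6 libraries. Polr1a had an internal stretch with H3K27ac in WT (79.3) and none in KO, where H3K4me3 scored 53.5 in KO and 53.3 in WT.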
